A study of Mus musculus with 8 samples.

Results

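The cholesterol and lipid synthesis genes were followed here across dendritic cells of the mouse spleen. They are 37 genes of sterol synthesis, its control by SREBP, fatty acid synthesis and sterol efflux, chosen by symbol from the 55487 genes of the count tables. All 37 had a row, and all 37 were among the 20631 genes that passed the filter on low counts. The 8 mevalonate pathway genes are Acat2, Hmgcs1, Mvk, Pmvk, Mvd, Idi1, Fdps and Ggps1. The 12 genes of squalene and later sterol steps are Fdft1, Sqle, Lss, Cyp51, Tm7sf2, Lbr, Msmo1, Nsdhl, Hsd17b7, Ebp, Sc5d and Dhcr7. The 5 SREBP control genes are Srebf1, Srebf2, Scap, Insig1 and Insig2, and the 2 genes of sterol transport and uptake control are Stard4 and Mylip. The 6 fatty acid genes are Fasn, Acaca, Scd2, Elovl6, Fads1 and Fads2, and the 4 genes of liver X receptors (LXR) and efflux are Nr1h2, Nr1h3, Abca1 and Abcg1.

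The cells were conventional dendritic cells of types 1 and 2 (cDC1 and cDC2), sentinel cells that engulf material and display its peptides to T cells. The 8 RNA-seq libraries formed 4 groups of 2: cDC1 of Zeb2 -165(d1+2+3) mice, wild-type cDC1, cDC2 of Irf8 +32-/- mice and wild-type cDC2. All groups were untreated spleen cells of the C57BL/6 background, 100000 per library. The genotype names give a gene and a position but do not say what lies there, and both sites are read here as enhancers. On that reading the Zeb2 mutant carries an altered enhancer of Zeb2, a transcriptional repressor. The Irf8 mutant lacks an enhancer of Irf8, a transcription factor that cDC1 need to develop. Each mutant was profiled in 1 cell type, so in the comparison of Zeb2 mutant cDC1 with Irf8 mutant cDC2 genotype and cell type cannot be told apart. The sources used here do not give ages, sort gates or the number of animals behind a library.

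Cells make cholesterol from acetyl-CoA through mevalonate, farnesyl diphosphate, squalene and lanosterol. When sterol in the endoplasmic reticulum is low, SCAP carries the membrane-bound SREBP factors to the Golgi, where they are cleaved, and the freed part switches on the genes of synthesis and uptake. INSIG proteins hold SCAP back when sterol is high. LXR factors sense oxysterols and switch on efflux pumps such as ABCA1, so that synthesis and export run in opposite directions. In macrophages and dendritic cells the same genes set membrane composition and the handling of lipid from engulfed cells.

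Promoters are shown first for the 4 members with the smallest adjusted p in wild-type cDC1 against wild-type cDC2, of which Insig2 and Nsdhl were higher and Pmvk and Abca1 lower. Hmgcs1 is shown too, because it alone among the 30 members with a promoter window held the SRE letters searched. Each is the RefSeq window of 250 bases before to 50 after the annotated start, on GRCm38.p6, 5′ to 3′ on the gene's strand. Capitals mark matches on either strand to CCAAT (or its reverse ATTGG), the box bound by NF-Y, to CACGTG, an E-box, and to TCACNCCAC, the core of a sterol regulatory element (SRE) bound by SREBP. The Insig2 window lies at chr1:121332540-121332839 (minus strand), the Nsdhl window at chrX:72918271-72918570 (plus) and the Pmvk window at chr3:89454291-89454590 (plus). The Abca1 window lies at chr4:53159846-53160145 (minus) and the Hmgcs1 window at chr13:119690101-119690400 (plus).
Insig2: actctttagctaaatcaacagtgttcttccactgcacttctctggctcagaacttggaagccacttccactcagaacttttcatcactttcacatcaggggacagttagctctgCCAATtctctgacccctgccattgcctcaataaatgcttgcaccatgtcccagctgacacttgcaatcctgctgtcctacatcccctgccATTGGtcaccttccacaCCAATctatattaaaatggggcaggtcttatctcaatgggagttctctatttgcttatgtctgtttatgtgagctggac
Nsdhl: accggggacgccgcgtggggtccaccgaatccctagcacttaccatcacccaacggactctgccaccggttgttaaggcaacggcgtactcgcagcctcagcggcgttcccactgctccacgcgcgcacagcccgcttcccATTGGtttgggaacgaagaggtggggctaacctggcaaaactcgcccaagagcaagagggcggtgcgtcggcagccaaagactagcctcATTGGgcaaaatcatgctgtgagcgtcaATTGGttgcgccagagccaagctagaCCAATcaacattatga
Pmvk: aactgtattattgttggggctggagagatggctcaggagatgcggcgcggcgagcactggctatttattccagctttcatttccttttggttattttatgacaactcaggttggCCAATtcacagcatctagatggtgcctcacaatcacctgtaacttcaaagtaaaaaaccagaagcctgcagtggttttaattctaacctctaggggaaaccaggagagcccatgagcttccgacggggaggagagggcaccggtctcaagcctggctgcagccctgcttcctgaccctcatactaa
Abca1: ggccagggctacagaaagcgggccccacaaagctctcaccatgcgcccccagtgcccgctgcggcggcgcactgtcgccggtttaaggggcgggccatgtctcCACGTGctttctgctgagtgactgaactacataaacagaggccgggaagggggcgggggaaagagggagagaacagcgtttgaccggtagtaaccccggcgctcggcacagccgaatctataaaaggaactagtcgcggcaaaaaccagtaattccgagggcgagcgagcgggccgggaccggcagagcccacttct
Hmgcs1: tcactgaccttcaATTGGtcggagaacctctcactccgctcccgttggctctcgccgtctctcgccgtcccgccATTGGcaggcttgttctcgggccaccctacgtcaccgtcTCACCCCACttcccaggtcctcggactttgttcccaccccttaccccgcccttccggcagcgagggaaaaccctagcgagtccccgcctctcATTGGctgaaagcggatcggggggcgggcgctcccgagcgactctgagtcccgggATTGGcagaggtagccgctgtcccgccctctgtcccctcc
Insig2 and Pmvk have further annotated starts, and the first window of each in the table is shown. The Insig2 window held 3 CCAAT matches, the Nsdhl and Hmgcs1 windows 4 each and the Pmvk window 1. The Abca1 window held no CCAAT match and 1 E-box, 147 bases before the start.

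The table of promoters held windows for 30 of the 37 members, and none for Stard4, Sqle, Abcg1, Fads1, Scd2, Fdft1 and Fdps. CCAAT stood in at least 1 window of 22 of these 30 members (73.3%), against 41.1% of all 27025 genes with a window. By window, 23 of 39 member windows (59.0%) held it, against 37.4% of all 32851 windows. CACGTG stood in 6 of the 30 members (20.0%), against 8.09% of all genes: Abca1, Dhcr7, Hsd17b7, Insig1, Sc5d and Scap. TCACNCCAC stood in Hmgcs1 alone (1 of 30 members, 3.33%, against 1.44% of all genes). For the DR4 element of LXR, a direct repeat of AGGTCA with 4 bases between, only the exact letters were searched. They stood in 0 of 30 members, against 0.0148% of all genes (4 of 27025). Letters this rare cannot show whether members such as Abca1 hold an LXR element that departs from them. No 2 matches overlap in the printed windows. All genes with a window form the background, whether or not they passed the filter on low counts. Whether these shares differ from those of genes at the members' level was not tested. A match is a stretch of letters, with no binding measured here.

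Libraries held 49380686 to 58611821 counts. All 8 cDC1 markers tested, such as Xcr1 and Clec9a, were called higher in cDC1 and all 8 cDC2 markers, such as Sirpa and Cd209a, lower, both in the wild-type and in the mutant pair. Zeb2 was at 2.24 and 3.54 CPM (counts scaled to library size, with TMM scaling in all CPM values here) in Zeb2 mutant cDC1, against 2.09 and 2.10 in wild-type cDC1. Irf8 was at 147 and 120.0 CPM in Irf8 mutant cDC2, against 126 and 104 in wild-type cDC2, so neither gene marks its mutant in the cells profiled. Neutrophil markers summed to 40.7 to 65.3 CPM in Zeb2 mutant cDC1, against 0.462 to 7.36 in wild-type cDC1, and to 25.0 to 25.8 in Irf8 mutant cDC2, against 0.873 to 10.5 in wild-type cDC2. Of the 4 neutrophil markers 3 were tested, and 0 were called in either mutant against its wild type. Erythroid markers reached 58.1 CPM in 1 Irf8 mutant library and at most 10.02 in the other libraries. The part of these cells in the results below was not tested. In sorted bulk samples, fewer cells of a type and less RNA per cell cannot be told apart.

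Levels between genes were compared on the FPKM scale, which divides by gene length, as the mean of all 8 libraries. The median member stood at 6.75 FPKM, against 1.76 for all genes tested, and 30 of 37 members lay above that median. Srebf2, the SREBP that drives cholesterol synthesis, was the highest member at 59.95 FPKM, followed by Nr1h2 (LXR beta) at 52.4 and Lbr at 39.0. Lbr encodes the lamin B receptor, a nuclear envelope protein whose sterol reductase domain acts in the same step as Tm7sf2. Among the mevalonate genes Pmvk was highest (25.2 FPKM) and Fdps lowest (0.434), and among the fatty acid genes Fasn was highest (24.2) and Elovl6 lowest (1.45). Abca1 (0.501 FPKM) and Tm7sf2 (0.597) were the next lowest members after Fdps. Srebf1, which drives fatty acid genes in liver, stood at 10.2 FPKM, below Srebf2 in every library.

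**Figure D1:**
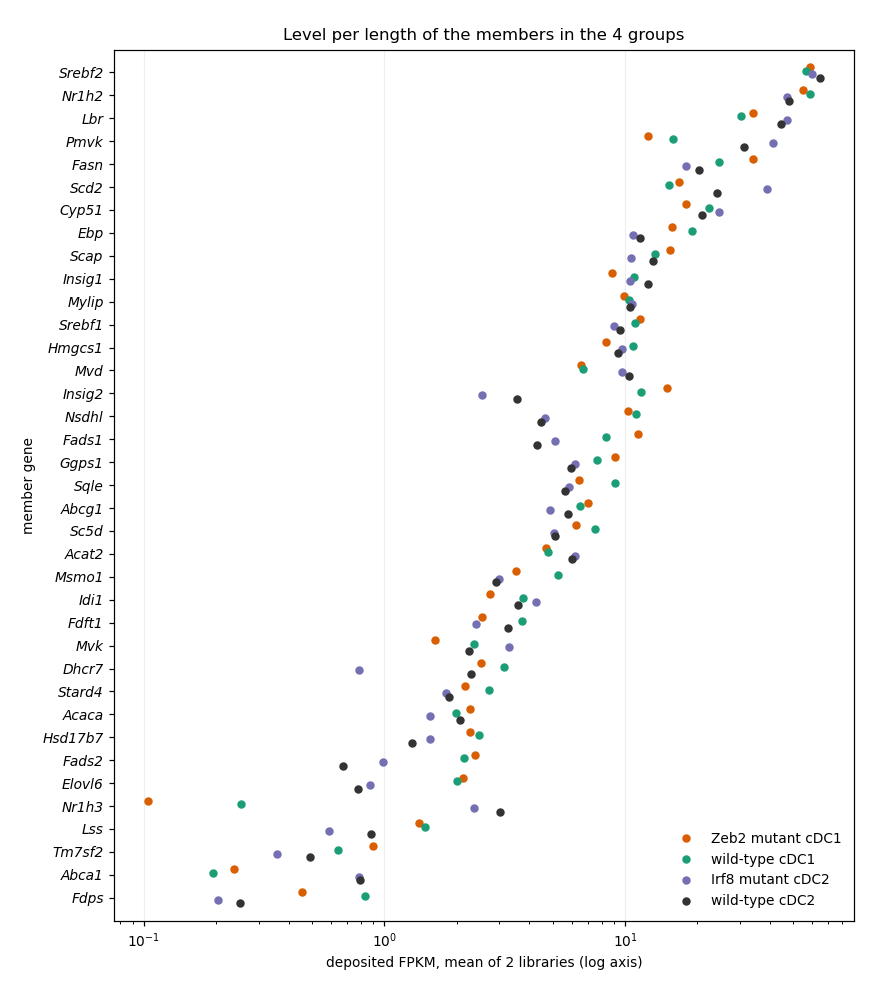
Deposited FPKM of the 37 members on a log axis, each point the mean of the 2 libraries of a group, members ordered by their mean over all libraries. Srebf2, Nr1h2 and Lbr are the highest members, Fdps, Abca1 and Tm7sf2 the lowest, and the cell types lie far apart for Nr1h3, Insig2 and Abca1.

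Cell type was the larger difference in the member genes. In wild-type cDC1 against wild-type cDC2, 12 of 37 members were higher, where 14.2% of all genes tested were, and 6 were lower, where 15.9% were (edgeR's quasi-likelihood test, Benjamini-Hochberg adjusted p under 0.05 over all genes tested, as in every call below). In Zeb2 mutant cDC1 against Irf8 mutant cDC2, which shares no library with the wild-type pair, 11 members were higher (12.8% of all genes) and 9 lower (15.0%). Called higher in both pairs were 6 members (9.87% of all genes), namely Insig2, Nsdhl, Lss, Fads1, Fads2 and Elovl6. Called lower in both were 6 (11.5%), namely Pmvk, Mvd, Lbr, Scd2, Nr1h3 and Abca1. In all 4 cDC1 libraries 11 members lay above all 4 cDC2 libraries (19.6% of all genes), and 7 lay below (20.4%).

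With all libraries, shares of higher calls among the members were above the background in both pairs. Shares of lower calls were close to it in the wild-type pair and above it in the mutant pair. Members are expressed above the median gene, and whether the share differs from that of genes at the same level was not tested. Markers of mature dendritic cells also differed between the cell types, though not all in the same direction. The 6 listed summed to 776 to 853 CPM in Zeb2 mutant cDC1 and 975 to 1171 in wild-type cDC1. In Irf8 mutant cDC2 they summed to 2697 to 3219 CPM, and in wild-type cDC2 to 2575 to 2735. Ccr7 alone averaged 652 CPM in wild-type cDC1 and 1760 in wild-type cDC2. Of these 6, 3 were called lower (Ccr7, Fscn1 and Relb) and 1 higher (Il15) in each pair. Ccl22 and Cd40 were not called, with estimates of 0.68 and 0.31 in the wild-type pair. The part of mature cells in the member values was not tested. Counts of calls rested on single libraries. The 18 calls of the wild-type pair became 11 without wild-type cDC1 replicate 2, 8 without wild-type cDC2 replicate 2 and 11 without its replicate 3. The 12 higher calls became 4 without wild-type cDC2 replicate 2, where 7.33% of all genes in that fit were called higher. They became 7 without wild-type cDC1 replicate 2 (9.04% of all genes) and 7 without wild-type cDC2 replicate 3 (7.52%). The 20 calls of the mutant pair became 12 without Zeb2 mutant replicate 2 and 11 without its replicate 3. Its 11 higher calls became 6 without Zeb2 mutant replicate 2 (7.41% of all genes), without its replicate 3 (7.12%) or without Irf8 mutant replicate 3 (10.0%). With 2 libraries a group, and with no word on whether a replicate is a separate mouse, the p-values cover the spread between libraries alone, which may be technical.

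**Figure D2:**
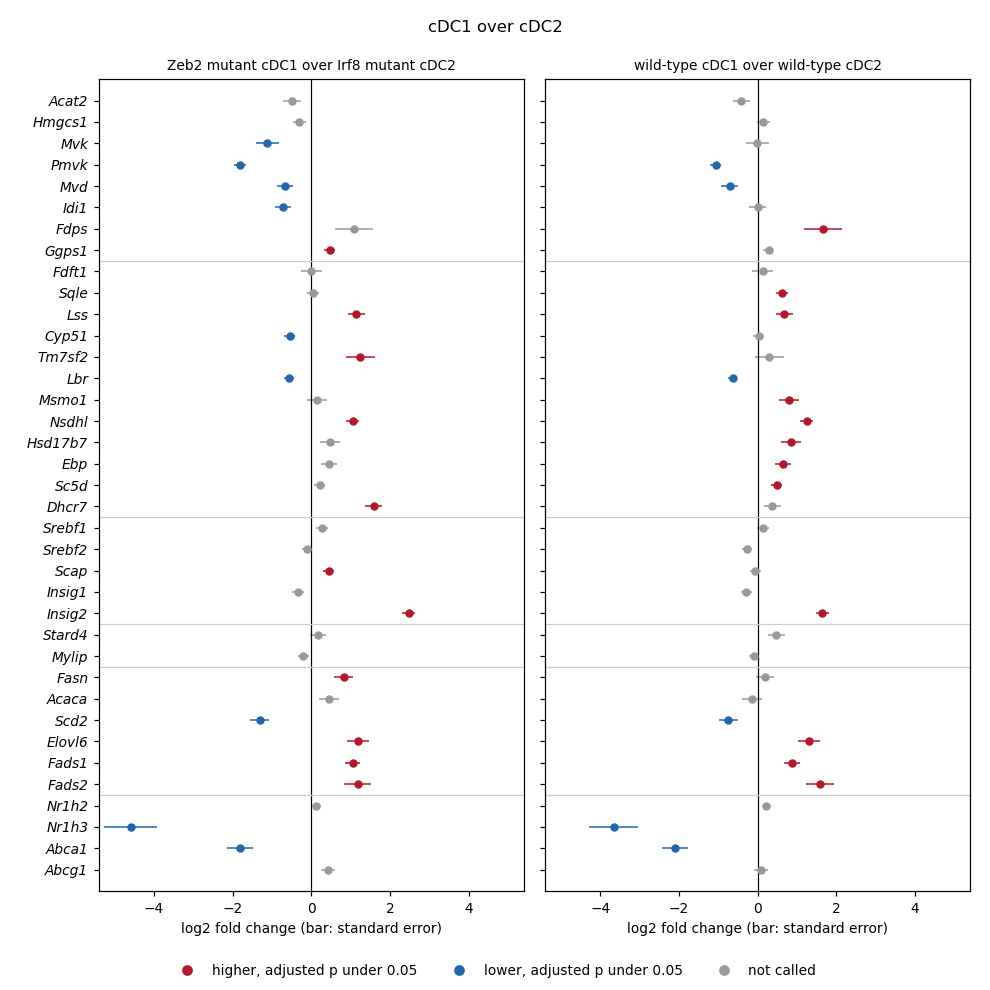
Log2 fold change of cDC1 over cDC2 for the 37 members with its standard error, in the mutant pair (left) and the wild-type pair (right), grouped by role from the mevalonate pathway (top) to LXR and efflux (bottom). Red and blue points passed edgeR's test; Nr1h3 is the furthest to the left in both panels, Insig2 the furthest to the right in the mutant pair, and Fdps (1.65) and Insig2 (1.63) lie next to each other furthest to the right in the wild-type pair.

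Within the mevalonate pathway the genes did not move together. Pmvk, the kinase that makes mevalonate diphosphate, had 20.9 and 19.9 CPM in Zeb2 mutant cDC1 and 26.7 and 26.3 in wild-type cDC1, against 81.6 and 63.2 in Irf8 mutant cDC2 and 54.9 and 56.4 in wild-type cDC2. Every cDC1 library was thus below every cDC2 library, and the mutant groups lay outside the wild-type groups on both sides. The log2 fold change was -1.07 ± 0.15 (SE) in the wild-type pair (edgeR adjusted p = 0.000375) and -1.83 ± 0.15 in the mutant pair (edgeR adjusted p = 1.05e-05). Mvd, the decarboxylase that follows Pmvk, was lower in both pairs (log2 fold change -0.71 in the wild-type and -0.67 in the mutant pair). Fdps, the farnesyl diphosphate synthase, was called higher in the wild-type pair (1.65), and Ggps1, which extends its product for protein prenylation, in the mutant pair (0.46). Mvk and Idi1 were called lower in the mutant pair (-1.12 and -0.73). Hmgcs1, which acts just before the rate-limiting step, had log2 fold changes of 0.14 and -0.31 in the wild-type and the mutant pair and passed neither test, and nor did Acat2 (-0.41 and -0.50).

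The Fdps values need care. Its 813 counts over all libraries stood beside 1643 of Gm3571, which matches an Fdps transcript at 98.9% over 1062 bases and was itself higher in wild-type cDC1 (log2 fold change 1.93, edgeR adjusted p = 0.000629). How reads shared between copies were counted is not stated. Acat2 shares 1414 bases at 98.5% with Acat3, Idi1 684 bases at 100% with Gm13502, and Acaca 6118 bases at 99.2% with Gm5182, with 322, 396 and 600 counts in the copies. The library kit does not mark strand, so exons that overlap on the opposite strand cannot be told apart either: those of Fdft1 overlap Ctsb, a cathepsin gene with 286828 counts against 5440 of Fdft1, over 774 bases. Tm7sf2 shares 532 bases of exon with Vps51 (30997 counts against 1157). Acat2 also matches a Tcp1 transcript on the opposite strand at 98.65% over 445 bases (78748 counts of Tcp1 against 6105 of Acat2).

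Of the 12 genes of squalene and later sterol steps, 7 were higher and 1 lower in wild-type cDC1, and 4 were higher and 2 lower in the mutant pair. Over all genes tested 14.2% were higher and 15.9% lower in the wild-type pair, and 12.8% and 15.0% in the mutant pair. Nsdhl, which removes the methyl groups at carbon 4 of the sterol ring together with Msmo1 and Hsd17b7, had 27.3 and 29.0 CPM in Zeb2 mutant cDC1 and 33.6 and 28.9 in wild-type cDC1. In cDC2 it had 12.9 and 14.4 CPM in the Irf8 mutant and 12.7 and 13.7 in wild type. Every cDC1 library stood above every cDC2 library (log2 fold change 1.24 ± 0.16 in the wild-type pair, edgeR adjusted p = 0.000202, and 1.04 ± 0.16 in the mutant pair, edgeR adjusted p = 0.000674). Lss, which closes squalene epoxide into lanosterol, had 14.8 and 14.1 CPM in Zeb2 mutant cDC1 and 14.9 and 16.4 in wild-type cDC1, against 7.36 and 5.77 in Irf8 mutant cDC2 and 8.64 and 10.9 in wild-type cDC2. The cell types did not overlap, and the difference passed the test in the mutant pair (log2 fold change 1.13 ± 0.22, edgeR adjusted p = 0.00268) and in the wild-type pair (0.67).

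Sqle, the squalene epoxidase and a rate-limiting enzyme of the later steps, had 34.5 and 34.2 CPM in Zeb2 mutant cDC1 and 52.3 and 46.9 in wild-type cDC1, against 31.3 and 35.1 in Irf8 mutant cDC2 and 28.5 and 35.9 in wild-type cDC2. Wild-type cDC1 stood above all other libraries, and Zeb2 mutant cDC1 lay within the cDC2 range. The wild-type pair differed (log2 fold change 0.63 ± 0.16, edgeR adjusted p = 0.0117) and the mutant pair did not pass (0.05 ± 0.16, edgeR adjusted p = 0.862). Without wild-type cDC2 replicate 2 the call of the wild-type pair was lost (edgeR adjusted p = 0.127). Msmo1, Hsd17b7, Ebp and Sc5d, which act after lanosterol, were likewise called in the wild-type pair, with log2 fold changes from 0.48 to 0.86, and not in the mutant pair (0.14 to 0.47). A call in 1 pair and not in the other does not show that the pairs differ: of all members, 0 passed the test of that difference, given further on.

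Dhcr7, which encodes the last reductase on the way to cholesterol, had 12.5 and 15.6 CPM in Zeb2 mutant cDC1 and 16.7 and 19.0 in wild-type cDC1, against 4.64 and 4.73 in Irf8 mutant cDC2 and 15.4 and 12.1 in wild-type cDC2. The Irf8 mutant libraries were the lowest by far and the other 3 groups lay close together. The mutant pair differed by 1.58 ± 0.21 on the log2 scale (edgeR adjusted p = 0.000299) and the wild-type pair by 0.37, which did not pass. Tm7sf2 was called higher (1.24) and Cyp51, the lanosterol demethylase, lower (-0.55) in the mutant pair. Lbr was the 1 gene of these steps lower in both pairs, with 162 and 148 CPM in Zeb2 mutant cDC1 and 139 and 144 in wild-type cDC1, against 227 and 234 in Irf8 mutant cDC2 and 225 and 214 in wild-type cDC2. Its log2 fold change was -0.63 ± 0.12 in the wild-type pair (edgeR adjusted p = 0.00232) and -0.57 ± 0.12 in the mutant pair (edgeR adjusted p = 0.00438, and 0.0808 without Zeb2 mutant replicate 3). Fdft1, the squalene synthase, passed in neither pair (log2 fold changes 0.12 in the wild-type and -0.00 in the mutant pair).

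Among the SREBP control genes, Insig2 parted the cell types while the others stayed near each other. Insig2 encodes one of the paired INSIG proteins that retain SCAP in the endoplasmic reticulum. It had 44.7 and 55.5 CPM in Zeb2 mutant cDC1 and 39.5 and 39.9 in wild-type cDC1, against 9.88 and 8.22 in Irf8 mutant cDC2 and 13.1 and 12.5 in wild-type cDC2. Every cDC1 library was at least 3 times every cDC2 library, with a log2 fold change of 1.63 ± 0.17 in the wild-type pair (edgeR adjusted p = 4e-05) and 2.47 ± 0.17 in the mutant pair (edgeR adjusted p = 2.78e-06). Insig1, its paralog and itself an SREBP target, had 26.4 and 26.2 CPM in Zeb2 mutant cDC1 and 30.6 and 35.1 in wild-type cDC1, against 31.3 and 35.3 in Irf8 mutant cDC2 and 37.7 and 42.4 in wild-type cDC2. The point estimates of Insig1 were below 0 in both pairs (-0.29 ± 0.15 in the wild-type and -0.34 ± 0.15 in the mutant pair) and neither passed.

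Srebf2 ranged from 371 to 484 CPM over the 8 libraries and Srebf1 from 49.9 to 67.7, and neither passed in either pair. Their log2 fold changes were -0.27 ± 0.12 (Srebf2) and 0.12 ± 0.15 (Srebf1) in the wild-type pair. Scap, which encodes the SREBP carrier, was called higher in the mutant pair (0.43) and not in the wild-type pair (-0.06). SREBP activity is set by cleavage of the protein, which these libraries do not measure.

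Stard4, which carries cholesterol between membranes, and Mylip, a ubiquitin ligase of lipoprotein receptors and an LXR target, passed in neither pair. Stard4 ranged from 9.06 to 15.6 CPM and Mylip from 29.9 to 36.9 CPM over the 8 libraries.

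The fatty acid genes did not all move in the same direction. The desaturases Fads1 and Fads2, which act in turn on polyunsaturated fatty acids, and Elovl6, which lengthens saturated C16 chains, were higher in cDC1 in both pairs. Fads1 had 47.5 and 57.1 CPM in Zeb2 mutant cDC1 and 35.8 and 42.4 in wild-type cDC1, against 29.9 and 20.8 in Irf8 mutant cDC2 and 23.2 and 19.8 in wild-type cDC2. The cell types did not overlap (log2 fold change 0.87 ± 0.20 in the wild-type pair, edgeR adjusted p = 0.00764, or 0.0709 without wild-type cDC2 replicate 3; 1.04 ± 0.20 in the mutant pair, edgeR adjusted p = 0.00276).

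Elovl6 had 14.5 and 11.8 CPM in Zeb2 mutant cDC1 and 13.4 and 11.99 in wild-type cDC1, against 6.55 and 5.04 in Irf8 mutant cDC2 and 3.89 and 6.41 in wild-type cDC2. Its cell types did not overlap (log2 fold change 1.30 ± 0.28 in the wild-type pair, edgeR adjusted p = 0.00523, or 0.053 without wild-type cDC2 replicate 2). Fads2 had 6.88 and 8.21 CPM in Zeb2 mutant cDC1 and 4.46 and 9.22 in wild-type cDC1, against 3.66 and 3.02 in Irf8 mutant cDC2 and 2.35 and 2.24 in wild-type cDC2. The lower wild-type cDC1 library stood just above the cDC2 libraries. Its log2 fold change in the wild-type pair was 1.58 ± 0.35 (edgeR adjusted p = 0.00653) and 0.96 without wild-type cDC1 replicate 3.

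Scd2, a stearoyl-CoA desaturase that makes monounsaturated fatty acids, ran the other way, with 93.6 and 82.0 CPM in Zeb2 mutant cDC1 and 67.0 and 95.9 in wild-type cDC1, against 274 and 164 in Irf8 mutant cDC2 and 132 and 141 in wild-type cDC2. Both mutant cDC2 libraries lay above wild-type cDC2, which lay above all cDC1. The mutant pair differed by -1.32 ± 0.24 (edgeR adjusted p = 0.00196), or by -0.83 without Irf8 mutant replicate 2, and the wild-type pair by -0.75. Fasn, the fatty acid synthase, was called higher in the mutant pair (log2 fold change 0.82) and not in the wild-type pair (0.19). Acaca, the carboxylase that feeds it, passed in neither (0.45 in the mutant and -0.15 in the wild-type pair).

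Of the LXR and efflux genes, Nr1h3 and Abca1 were lower in cDC1, and Nr1h2 and Abcg1 passed in neither pair. Nr1h3 (LXR alpha, the LXR form prominent in macrophages and liver) had 0.155 and 0.350 CPM in Zeb2 mutant cDC1 and 0.225 and 1.01 in wild-type cDC1, against 7.94 and 4.30 in Irf8 mutant cDC2 and 7.22 and 8.46 in wild-type cDC2. No cDC1 library exceeded 1.01 CPM and no cDC2 library fell under 4.30. The log2 fold change was -3.66 ± 0.62 in the wild-type pair (edgeR adjusted p = 0.00128) and -4.60 ± 0.67 in the mutant pair (edgeR adjusted p = 0.000503). It became -2.96 and -5.11 in the wild-type pair without wild-type cDC1 replicates 2 and 3, and -5.28 in the mutant pair without Zeb2 mutant replicate 3, and each stayed past the test.

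Abca1, the pump that loads cholesterol onto apolipoproteins, had 1.94 and 2.78 CPM in Zeb2 mutant cDC1 and 2.14 and 1.83 in wild-type cDC1, against 10.3 and 6.44 in Irf8 mutant cDC2 and 7.18 and 9.77 in wild-type cDC2. No cDC1 library reached the lowest cDC2 library (log2 fold change -2.09 ± 0.33 in the wild-type pair, edgeR adjusted p = 0.000837, and -1.82 ± 0.33 in the mutant pair, edgeR adjusted p = 0.00197). Nr1h2 ranged from 160.4 to 206 CPM and Abcg1, the pump that exports cholesterol to lipoprotein particles, from 31.3 to 56.4 CPM over the 8 libraries. Their log2 fold changes were 0.22 ± 0.12 and 0.08 ± 0.18 in the wild-type pair.

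Macrophage markers moved in the same direction as Nr1h3 and Abca1. The 10 listed (Adgre1, Fcgr1, C1qa, C1qb, C1qc, Vcam1, Spic, Hmox1, Mertk and Axl) summed to 67.5 to 72.5 CPM in Zeb2 mutant cDC1 and 78.4 to 95.8 in wild-type cDC1, against 376 to 511 in Irf8 mutant cDC2 and 411 to 453 in wild-type cDC2. In wild-type cDC1 8 of 10 were called lower, and in the mutant pair 9 of 10, and none was at 0 in any group. Their part in the Nr1h3 and Abca1 values was not tested.

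**Figure D3:**
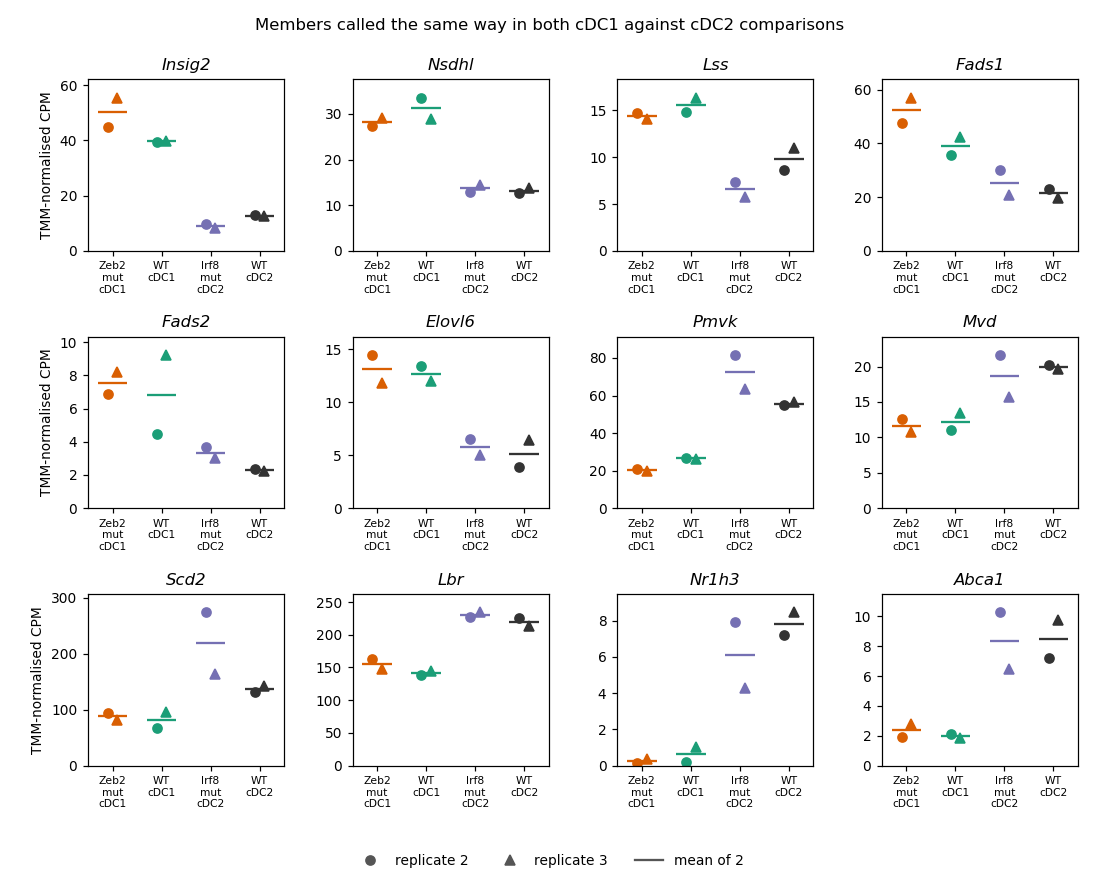
TMM-normalised CPM of the 12 members called in the same direction in both pairs, a circle for replicate 2 and a triangle for replicate 3 of each group, with the mean of the 2 as a line and every axis starting at 0. In Insig2, Nsdhl, Lss, Fads1, Fads2 and Elovl6 all cDC1 points lie above all cDC2 points, and in Pmvk, Mvd, Scd2, Lbr, Nr1h3 and Abca1 all lie below.

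Genes next to these pathways were read from a pair of further lists. Of 24 other sterol and SREBP genes 22 were tested, with 6 higher and 2 lower in wild-type cDC1 and 4 higher and 4 lower in the mutant pair. The median log2 fold change of these 22 was 0.24 in the wild-type and 0.34 in the mutant pair. The genes that release cholesterol from lysosomes did not move together. Lipa, the lysosomal acid lipase, and Npc2, a carrier of free cholesterol in the lysosome, were higher in cDC1 (wild-type pair log2 fold changes 0.95 and 1.27, edgeR adjusted p = 0.000148 and 0.000407). Npc1, the membrane protein to which NPC2 hands its cholesterol, was lower (-1.63, edgeR adjusted p = 5.96e-05), with 17.1 and 15.7 CPM in wild-type cDC1 against 49.7 and 52.4 in wild-type cDC2. Elovl5, an elongase of polyunsaturated fatty acids, was lower as well (-1.18, edgeR adjusted p = 0.000367).

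Of 12 other LXR target and oxysterol genes, 2 were higher and 6 lower in wild-type cDC1, and 1 was higher and 3 lower in the mutant pair, with median log2 fold changes of -0.82 and -0.25. Pltp, a phospholipid transfer protein and LXR target, had 0.104 and 0.0684 CPM in wild-type cDC1 against 45.0 and 48.9 in wild-type cDC2 (edgeR adjusted p = 8.62e-08). Rxra, the partner with which LXR binds DNA, was higher in wild-type cDC1 (1.61, edgeR adjusted p = 2.05e-05), and Rxrb, another such partner, lower (-0.73, edgeR adjusted p = 0.00177). Cyp7b1, which breaks down 25- and 27-hydroxycholesterol, was at 0 and 0.0171 CPM in wild-type cDC1 against 0.709 and 1.72 in wild-type cDC2 (edgeR adjusted p = 0.000479). In Zeb2 mutant cDC1 against wild-type cDC1, and in Irf8 mutant cDC2 against wild-type cDC2, 0 genes of either list passed.

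In Zeb2 mutant cDC1 against wild-type cDC1, which asks whether the altered enhancer goes with a change of these genes in cDC1, 0 of 37 members passed edgeR's test (0.0679% of all genes did) and 0 passed DESeq2's. At an unadjusted p under 0.05 stood 6 members (10.5% of all genes), namely Hmgcs1, Pmvk, Idi1, Sqle, Cyp51 and Msmo1, all sterol synthesis genes with a negative estimate. Both mutant libraries lay below both wild-type libraries in 14 members (19.8% of all genes), 12 of them among the 20 sterol synthesis genes, and above in 6 (19.2%). Over the 20 sterol synthesis genes the median log2 fold change was -0.33, with 17 estimates below 0, against a median of -0.03 over all genes tested. The 6 mature dendritic cell markers also had estimates below 0, with a median of -0.40, from -1.06 (Ccl22) to -0.26 (Fscn1), and none passed. Cd209a, a cDC2 marker, was lower in Zeb2 mutant cDC1, at 0.378 and 0.406 CPM against 11.5 and 5.53 in wild-type cDC1 (edgeR adjusted p = 0.00322). The part of mature or cDC2 cells in the sterol values was not tested. The largest negative estimates among the 6 members under an unadjusted p of 0.05 were -0.63 ± 0.25 (Msmo1, edgeR adjusted p = 0.418) and -0.53 ± 0.16 (Sqle, edgeR adjusted p = 0.298).

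Hmgcs1 had 37.8 and 35.9 CPM in Zeb2 mutant cDC1, against 51.2 and 46.7 in wild-type cDC1. Cyp51 had 69.3 and 82.2 CPM in Zeb2 mutant cDC1, against 105 and 88.8 in wild-type cDC1. For Idi1, Zeb2 mutant libraries stood at 8.51 and 10.03 CPM and wild-type cDC1 at 14.2 and 11.8. In each the groups did not overlap, and all 4 cDC2 libraries were above the mutant values. Msmo1, also without overlap, had 23.9 and 17.4 CPM in Zeb2 mutant cDC1 and 38.2 and 25.8 in wild-type cDC1. The sum over the 20 genes came to 572.5 and 564 CPM in Zeb2 mutant cDC1 and to 679 and 624 CPM in wild-type cDC1, so the highest mutant sum lay below the lowest wild-type sum. The corresponding sums were 700.1 and 695 in Irf8 mutant cDC2 and 648 and 679 in wild-type cDC2.

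The fatty acid genes did not share that direction: all 6 estimates were above 0, with a median log2 fold change of 0.16, or 3 of 6 without wild-type cDC1 replicate 2 and a median of -0.02. Fasn had 353 and 361 CPM in Zeb2 mutant cDC1, against 182 and 341 in wild-type cDC1, so the groups did not overlap and the wild-type libraries were the ones that differed between themselves. Without wild-type cDC1 replicate 3, Fasn passed the test (log2 fold change 1.0 ± 0.15, edgeR adjusted p = 0.00462), the 1 member to do so with any library left out. Insig1 (-0.32 ± 0.15) and Insig2 (0.34 ± 0.16) had estimates of opposite sign, and neither passed. In this comparison log2 fold changes followed gene length over 8399 genes at 10 CPM or more (Spearman's rho of 0.48, a correlation across genes, which are not independent). The wild-type cDC1 libraries also differed from each other along length (rho of -0.39 for replicate 2 minus replicate 3), and replicate 2 had counts in 25993 genes and replicate 3 in 32358. In the wild-type pair rho was -0.27. After removal of the trend with length the sterol synthesis median was -0.32 and 15 of 20 estimates were below 0.

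**Figure D4:**
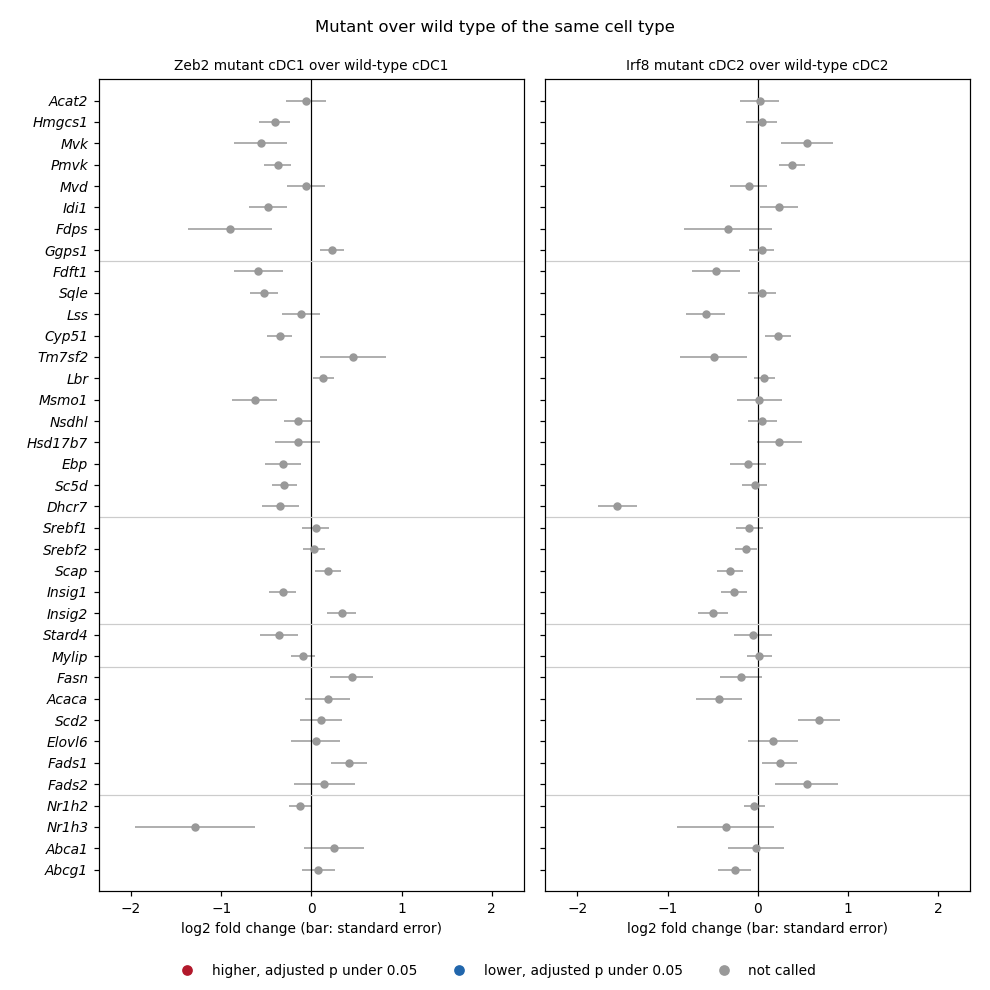
Log2 fold change of each mutant over wild type of the same cell type for the 37 members with its standard error, Zeb2 mutant cDC1 (left) and Irf8 mutant cDC2 (right), in the same order of roles. All points are grey because no member passed edgeR's test; 17 of the 20 sterol synthesis genes at the top lie left of 0 in the Zeb2 mutant, and Dhcr7 is the furthest left in the Irf8 mutant.

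In Irf8 mutant cDC2 against wild-type cDC2, which asks whether loss of the enhancer goes with a change of these genes in cDC2, 0 of 37 members passed edgeR's test, as did 0.0% of all genes. Dhcr7 came closest. Its Irf8 mutant libraries (4.64 and 4.73 CPM) lay far under both wild-type cDC2 libraries (15.4 and 12.1 CPM). Its log2 fold change was -1.56 ± 0.21 (unadjusted p = 2.44e-05, edgeR adjusted p = 0.0629). DESeq2 called it (adjusted p = 2.66e-08), as did edgeR without the filter on low counts (7.16e-07), without wild-type cDC1 replicate 2 (0.0258) and without wild-type cDC1 replicate 3 (0.0290). Leaving out either library of the compared groups gave no call.

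At an unadjusted p under 0.05 stood 5 members (6.36% of all genes): Pmvk, Lss, Dhcr7, Insig2 and Scd2. Of these Pmvk (log2 fold change 0.38) and Scd2 (0.68) were above 0, and Lss (-0.58) and Insig2 (-0.50) below. Scd2 passed edgeR's test without the filter on low counts (adjusted p = 0.00760). Both mutant libraries lay above both wild-type libraries in 6 members (19.6% of all genes) and below in 9 (19.7%). The 5 SREBP control genes all had estimates below 0, from -0.50 (Insig2) to -0.09 (Srebf1), with a median of -0.27, against 0.01 over all genes tested. The median of the 20 sterol synthesis genes was 0.03.

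The difference between the mutants' effects, which equals the difference between the mutant and the wild-type pair, passed in 0 of 37 members by edgeR (0.0194% of all genes) and in Dhcr7 by DESeq2 (1.23, adjusted p = 0.0220). At an unadjusted p under 0.05 stood 8 members (7.62% of all genes): Mvk, Pmvk, Idi1, Sqle, Cyp51, Dhcr7, Scap and Insig2. For Insig2 the difference was 0.83 ± 0.23 and for Pmvk -0.76 ± 0.21 (edgeR adjusted p = 0.387 for both). In both genes the estimate was further from 0 in the mutant pair than in the wild-type pair. Without wild-type cDC1 replicate 3, Scap, Acaca and Fasn passed edgeR's test of the difference (adjusted p = 0.0374, 0.0349 and 0.00867).

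**Figure D5:**
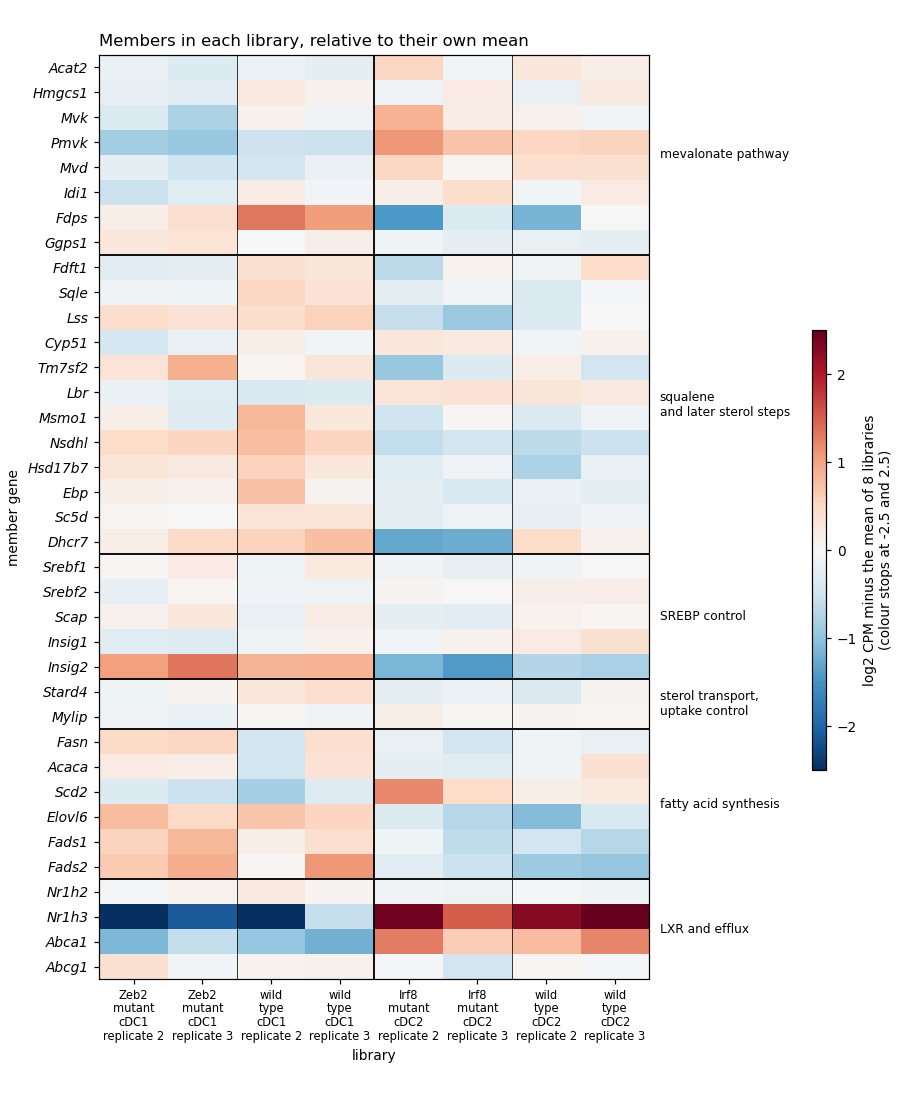
Log2 CPM of each member in each of the 8 libraries minus the member's mean over the libraries, with red above and blue below the mean and colours stopping at -2.5 and 2.5. Nr1h3, Abca1, Pmvk and Insig2 separate cDC1 (left) from cDC2 (right), Dhcr7 is low in both Irf8 mutant libraries, and Fasn and Acaca are lower in wild-type cDC1 replicate 2 than in replicate 3.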

How the data were processed

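RNA of sorted spleen dendritic cells was converted with the SMARTer Ultra Low RNA kit from 10 ng and read as pairs of 150 bases, per the labels' protocols. The authors used STAR, Subread featureCounts and Salmon with GRCm38, per the submitters' processing notes. For the strand setting and for reads shared between genes the step is not given in the sources used. Each deposited file has, per the file headers, a count column of unnormalised reads for every gene. Its deposited CPM was checked to be the count scaled to the column's sum, and its deposited FPKM to be that CPM divided by exon length. The authors' TPM column was not used. GENCODE M21 gave symbols for 55227 of 55487 IDs, and all 37 members had the files' coordinates.

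The model of the counts was edgeR 4.0.16 under R 4.3.3 (filterByExpr, TMM, robust quasi-likelihood) on 8 libraries with 1 coefficient per group and 4 residual degrees of freedom. Calls used a Benjamini-Hochberg adjusted p under 0.05 over 20631 genes in each of 5 comparisons. The common biological coefficient of variation was 0.286. Standard errors are the fold change over the root of F. CPM values printed are TMM-scaled. Alternatives were RLE size factors, DESeq2 1.42.0, no filter, only the groups compared, the length trend removed, a replicate block, and each library left out. Copies were sought with BLAST 2.17.0 among GENCODE transcripts (at least 98% over 150 bases; 16 members had one) and by exon overlap (14 members). Promoters came from RefSeq on GRCm38.p6. The members and lists were chosen with earlier results of these data known. Full statistics go to members called in a cell type comparison, at most the 10 with the smallest adjusted p in each, and at most 4 genes of a companion list are named in a comparison by the same order. Further member values, such as those of Insig1, of Fasn and of Hmgcs1, Cyp51, Idi1 and Msmo1 in the Zeb2 comparison, were chosen after they were seen.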

Additional observations from a re-analysis of the deposited data

How the results depend on the processing

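With 2 libraries a group, small differences are not detectable at this depth of replication. Low members such as Fdps, Tm7sf2, Nr1h3, Fads2 and Abca1 rest on the fewest counts. The 20 fold changes given with full statistics in the cell type comparisons kept direction and call in 140 of 140 fits with another setting, and in 156 of 160 fits with 1 library left out; the 4 lost calls are Elovl6, Fads1 and Sqle in the wild-type pair and Lbr in the mutant pair, and none reversed. The count of members called ranged from 8 to 18 in the wild-type pair (18 with all libraries) and from 11 to 22 in the mutant pair (20) with 1 library left out, and these fits have fewer samples. In the Zeb2 comparison it ranged from 0 to 1, in the Irf8 comparison from 0 to 1 and in the difference of effects from 0 to 3. In the Irf8 comparison DESeq2 called 1 member and edgeR without the low-count filter 2, and in the difference of effects DESeq2 called 1; the cause was not tested. Replicate numbers are shared between groups, and what they stand for is not stated. Deviations of same-numbered libraries correlated at -0.025 to -0.001 over all genes tested, low ones included. Whether same-numbered libraries share an animal or a sort cannot be told from these values. With a replicate block the paired fit called 15 members in the wild-type pair and 17 in the mutant pair, and 0 in the other comparisons, and with the length trend also removed 17 and 22.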
